A study of Mus musculus with 12 samples.

Results

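The nonclassical MHC class I genes are the class I genes of the mouse H2 complex other than those of the classical molecules H2-K and H2-D. The set described here was chosen by symbol, not by any measured value: *H2-T23*, *H2-T22*, *H2-T10* and *H2-T24* of the T region, *H2-Q1*, *H2-Q4*, *H2-Q6*, *H2-Q7* and *H2-Q10* of the Q region, and *H2-M3* of the M region, 10 of 45563 symbols used. RNA was sequenced from primary oligodendrocyte precursor cells (OPCs), isolated from cortices of C57BL/6 pups of postnatal day 2 to 5 with beads against PDGFRα and kept in culture for 3 days. Wild-type (WT) OPCs and OPCs with a germline knock-out of TNFR2 (TNFR2-/-), which every cell of the animal carries, were either non-stimulated (NS, vehicle only) or stimulated (St) for 3 h with TNF, IFNγ and IL1β at 25 ng/mL each. The 12 libraries form 4 groups of 3, WT NS, WT St, TNFR2-/- NS and TNFR2-/- St, with NS and St libraries of one genotype numbered alike in the labels (2, 3 and 4 in WT, 2, 4 and 5 in TNFR2-/-). Library totals, recovered from the deposited values, ranged from 26886879 to 30335266 read pairs (median 30056332).

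Class I molecules are heavy chains that pair with β2-microglobulin (*B2m*) at the cell surface. Classical molecules present peptides to cytotoxic T cells, whereas nonclassical ones vary little between individuals and are read mostly by natural killer cells and by unconventional T cells. Qa-1, the product of *H2-T23* and the mouse counterpart of HLA-E, displays leader peptides of other class I molecules to the inhibitory receptor CD94/NKG2A. The products of *H2-T10* and *H2-T22* are bound by a subset of γδ T cells without carrying a peptide, Qa-2 is encoded by *H2-Q7* and its near copies, *H2-M3* presents formylated peptides, and the products of *H2-Q4* and *H2-Q10* can be secreted. Transcription of class I genes is raised by interferon through *Nlrc5*, the class I transactivator, and through interferon regulatory factors, and by NF-κB acting on a short upstream enhancer.

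All 10 genes lie on chromosome 17 of GRCm38 (GENCODE M21). *H2-Q1* starts at 35320405, *H2-Q4* spans 35379617 to 35385290, *H2-Q6* 35424850 to 35430055, *H2-Q7* 35439155 to 35443773 and *H2-Q10* 35470089 to 35474563, all on the plus strand. The T genes lie on the minus strand, with *H2-T24* at 36005695 to 36020560, *H2-T23* at 36029773 to 36032855, *H2-T22* at 36037128 to 36042747 and *H2-T10* at 36115876 to 36121465, and *H2-M3* lies on the plus strand at 37270220 to 37274484. *H2-T10* is annotated as a polymorphic pseudogene and the other 9 as protein coding. Because many of these genes are copies of one another, the upstream sequences are shown first, and the sequence that their transcripts share is given next.

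RefSeq promoter windows of GRCm38.p6, from 250 bases before to 50 bases after the start site, were found for 7 of the 10 members (all but *H2-T10*, *H2-T24* and *H2-Q1*). They were searched on both strands for a κB motif, for an ISRE-like core spelled GAANNGAAA, for a GAS-like core spelled TTCNNNGAA and for the CRE-like letters TGACGC of the class I X box. The stretches that hold the κB and ISRE-like letters are printed 5′ to 3′ on the strand of the gene, with both in capitals. Those of the classical genes *H2-K1* and *H2-D1* follow for comparison.
H2-Q4, chr17:35379433-35379482 (+): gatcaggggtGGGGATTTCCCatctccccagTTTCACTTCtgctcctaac
H2-Q6, chr17:35424667-35424716 (+): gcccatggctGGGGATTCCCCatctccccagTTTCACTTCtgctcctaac
H2-Q7, chr17:35439011-35439060 (+): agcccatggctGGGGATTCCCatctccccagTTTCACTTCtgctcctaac
H2-Q10, chr17:35469903-35469952 (+): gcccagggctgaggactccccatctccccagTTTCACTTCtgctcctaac
H2-M3, chr17:37270098-37270151 (+): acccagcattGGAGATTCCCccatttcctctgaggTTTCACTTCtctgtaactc
H2-T22, chr17:36042937-36042965 (-): aaagtagctgGGAGAGTCCCtaattggct
H2-K1, chr17:34000419-34000468 (-): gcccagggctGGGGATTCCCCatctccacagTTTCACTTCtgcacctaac
H2-D1, chr17:35262913-35262962 (+): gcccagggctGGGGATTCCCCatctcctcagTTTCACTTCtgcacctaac
The κB motif was matched in 5 of the 7 member promoters (*H2-Q4*, *H2-Q6*, *H2-Q7*, *H2-M3* and *H2-T22*) and in 8.46% of all 32851 promoters of the table. The ISRE-like core was matched in 5 (*H2-Q4*, *H2-Q6*, *H2-Q7*, *H2-Q10* and *H2-M3*) and in 7.52% of all promoters. Both motifs together occurred in 0.53% of promoters. In *H2-Q4*, *H2-Q6*, *H2-Q7* and *H2-M3*, as in *H2-K1* and *H2-D1*, the κB match began 17 to 26 bases before the ISRE-like match, a spacing that was chosen after these sequences were seen and that 9 windows of the table hold (0.0274%). In the window of *H2-Q10* the letters at the place of the κB match differ and no match was found. The GAS-like core was matched only in *H2-M3* (8.3% of all promoters), and the CRE-like letters in *H2-Q4* and *H2-M3* (7.4%). The CRE-like match of *H2-M3* lay before the start site (first base at -46). That of *H2-Q4* lay after it (first base at 30), so it is not an upstream X box. No κB match overlapped an ISRE-like match, although in *H2-Q4* and *H2-Q6* the κB motif was matched at 2 neighboring positions. The window of *H2-T23* (chr17:36032652-36032951, minus strand) held none of the 4 motifs as spelled. It does hold the letters TTTCTCTTTC, and the window of *H2-T22* holds TTTCACTTTC. The spelling GAANNGAAA matches neither of these on either strand. The search therefore cannot show that a window lacks an ISRE-like sequence of another spelling. A match describes these letters only, and binding was not measured.

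Reads from shared transcript sequence can be counted for either copy, so the 100-base sequences of each gene's transcripts that also occur in another gene were counted. They made up 31.5% of *H2-T22*, 28.1% of *H2-T10*, 14.1% of *H2-Q4*, 13.0% of *H2-Q6*, 12% of *H2-Q7*, 8.05% of *H2-Q1*, 8.01% of *H2-Q10* and 3.15% of *H2-T23*, and none of *H2-T24* or *H2-M3*. The larger shares lay mostly with antisense genes. *H2-T22* shared 24% with *A930015D03Rik*, which had 2 to 6 reads in each library, and *H2-T10* shared 22.5% with *BC023719*, which had 0. *H2-Q4* shared 11.8% with *Gm11131*, which had 1 to 41 reads. Between members, *H2-T22* shared 6.92% with *H2-T10*, *H2-Q6* shared 8.36% with *H2-Q7*, and *H2-Q7* shared 5.56% with *H2-Q10* and 3.42% with *H2-Q6*. Levels of *H2-T10*, *H2-Q6* and *H2-Q10* are the least certain in this respect, since their partners had more reads in every library. Whether strand was used in counting is not given in the sources used here, so reads of a gene and of its antisense partner cannot be told apart. *H2-Q8*, *H2-Q9* and *H2-T9* were not analysed here.

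**Figure D1:**
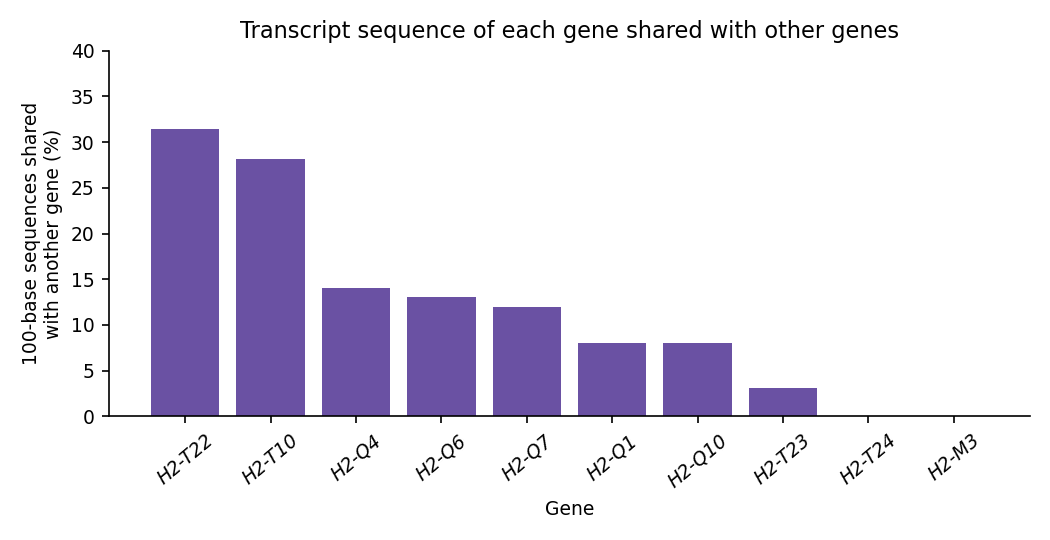
Share of the 100-base sequences in the annotated transcripts of each gene (x axis) that also occur in transcripts of another gene (y axis, percent). The bars of H2-T22 (31.5%) and H2-T10 (28.1%) are the tallest, and H2-T24 and H2-M3 have none.

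The deposited levels are fragments per kilobase per 1000000 reads (FPKM), but the number of bases by which each gene was divided bears no relation to its annotated length. FPKM are therefore given for one gene across libraries, and levels are set between genes only as reads per kilobase of annotated exon per 1000000 reads. All 4 groups entered a single limma fit of log2(FPKM + 0.5) over the 18081 symbols whose mean reached 0.1 FPKM. A gene was called at an adjusted p (Benjamini-Hochberg) of at most 0.05, a change of at least 1.5-fold and a mean of at least 1 FPKM. Of the 10 members, 9 were tested and 7 reached the mean needed for a call. *H2-Q1* was not tested, with a value above 0 in 1 TNFR2-/- NS library (0.0737 FPKM) and 0 in the other 11. That value was recovered as 1 read, the smallest number that fits, and more reads would fit with a larger divisor. Over all libraries a count of 0 allows up to 0.0989 to 0.112 reads per 1000000 (RPM). *H2-T24* and *H2-Q10* were tested but lay below the mean of 1 FPKM. Since the divisors are not lengths, this minimum can leave out a gene with more reads than a gene it keeps. *H2-T24*, with 28 to 112 reads a library, could not be called, whereas *H2-T10*, with 13 to 55, could.

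The targeted gene had more reads, not fewer, in the libraries labelled TNFR2-/-, for a reason that was not tested. Reads of *Tnfrsf1b* numbered 12 to 24 (WT NS) and 61 to 145 (WT St), against 213 to 346 and 282 to 356 in the NS and St libraries labelled TNFR2-/-. Every direction between genotypes below rests on these labels. Of the 8 OPC markers all were detected, with summed levels of 7115 to 9953 RPM. The sums were 9.94 to 13.1 for 12 microglial markers and 0.231 to 1.06 for 7 markers of T and NK cells. Markers of other cells were more abundant, at 1557 to 3704 RPM for 6 of astrocytes and 550 to 1342 for 7 of mature oligodendrocytes. Sums were 75.7 to 872 for 7 mural and fibroblast, 96.3 to 544 for 5 neuronal and 28.5 to 63.1 for 6 endothelial markers.

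In WT OPCs, stimulation raised 5 of the 10 nonclassical genes and lowered none, where 4.58% of all tested symbols were called higher, 2.95% lower and 7.53% in either direction. *H2-Q4* rose most, 21.6-fold from 6.80 ± 0.219 to 147 ± 8.82 FPKM (SD, n = 3). *H2-Q6*, *H2-Q7*, *H2-T23* and *H2-T10* rose 9.36-fold, 3.23-fold, 6.32-fold and 1.99-fold in mean FPKM. In 7 of the 9 tested members all 3 St libraries lay above all 3 NS libraries, which held for 13.7% of tested symbols. The median log2 fold change of the 9 was 0.69, against -0.05 for all tested symbols. These are cultures, so more RNA per cell cannot be told apart from a larger share of cells that express a gene.

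*H2-Q4* had 6.84, 7.0 and 6.57 FPKM in WT NS replicates 2, 3 and 4, and 157, 142 and 141 FPKM in the St replicates of the same numbers. The groups were far apart and the St replicates lay close together. Its log2 fold change was 4.33 ± 0.13 SE (adjusted p = 5.30e-09, limma), from 131 to 143 reads in NS and 2954 to 3283 in St libraries. The antisense gene *Gm11131* had 1 to 3 reads in NS and 18 to 41 in St libraries of WT OPCs.

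*H2-Q6* and *H2-Q7* are neighbors that share sequence. *H2-Q6* had 0.193, 0.135 and 0.290 FPKM in WT NS and 2.24, 1.52 and 2.02 in WT St, with 5 to 12 and 63 to 93 reads. *H2-Q7* had 22.8, 23.5 and 24.9 FPKM in WT NS and 88.0, 67.8 and 74.2 in WT St, with 70 to 83 and 226 to 294 reads. The groups did not overlap in either gene, and *H2-Q6* moved further from fewer reads. Their log2 fold changes were 1.78 ± 0.15 SE (adjusted p = 1.57e-05) and 1.66 ± 0.18 SE (adjusted p = 1.06e-04). As a sum, the reads of both genes went from 75 to 95 in NS to 289 to 387 in St libraries, with a log2 fold change of 1.92 ± 0.18 SE by voom on recovered reads (adjusted p = 1.12e-05).

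*H2-T23* had 0.219, 0.153 and 0.253 FPKM in WT NS and 1.29, 1.38 and 1.28 in WT St, from 20 to 37 and 187 to 202 reads. All St libraries lay well above the NS libraries, and they were more alike than the NS libraries. The log2 fold change was 1.36 ± 0.18 SE (adjusted p = 3.87e-04). NS levels of *H2-T23* and *H2-Q6* lie below the 0.5 FPKM added before the logarithm, which shrinks these values. On recovered reads with voom the log2 fold changes were 2.66 ± 0.38 SE for *H2-T23* and 3.18 ± 0.35 SE for *H2-Q6*.

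*H2-T10* and *H2-T22*, the pair seen by γδ T cells, moved by less. *H2-T10* had 0.930, 0.623 and 0.783 FPKM in WT NS and 1.52, 1.56 and 1.56 in WT St, from 15 to 25 and 41 to 42 reads. It rose by 0.69 ± 0.16 SE on the log2 scale (adjusted p = 0.0136), but missed 1.5-fold with a pseudocount of 1 (0.52), and without WT NS replicate 3 its adjusted p was 0.0576. *H2-T22* had 21.6, 22.2 and 17.5 FPKM in WT NS and 27.3, 30.1 and 28.6 in WT St. Its groups did not overlap, and the log2 difference of 0.48 ± 0.11 SE (adjusted p = 0.00992) was smaller than the 1.5-fold needed for a call. The sum of both genes, which removes reads that the 2 could exchange, differed by 0.52 ± 0.10 SE (adjusted p = 0.00439) and was not called. Most of its reads were of *H2-T22*, with 529 to 655 in WT NS and 828 to 912 in WT St libraries. The sum therefore cannot show whether *H2-T10* rose.

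The other 3 tested members did not pass the test in WT OPCs. *H2-T24* had 0.269, 0.317 and 0.284 FPKM in WT NS and 0.350, 0.351 and 0.372 in WT St, a log2 difference of 0.12 ± 0.14 SE (95% interval -0.19 to 0.42). All 3 St libraries were slightly higher. *H2-Q10* had 0.399, 0.356 and 0.320 FPKM in NS and 0.796, 0.479 and 0.279 in St, from 7 to 20 reads in all, and its groups overlapped (log2 difference 0.22 ± 0.18 SE, interval -0.18 to 0.61). *H2-M3* had 2.92, 1.37 and 3.40 FPKM in NS and 3.58, 2.55 and 3.95 in St, with the lowest library of each condition in culture 3 (log2 difference 0.38 ± 0.33 SE, interval -0.35 to 1.12). *H2-M3* held matches to the κB and ISRE-like motifs, as *H2-Q4* did, and did not pass the test. *H2-T23* passed it with none of the searched motifs as spelled in its window, which does hold the letters TTTCTCTTTC. The part of these motifs in the responses was not tested. With 13 to 46 reads a library for *H2-M3*, changes inside its interval were not detectable.

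**Figure D2:**
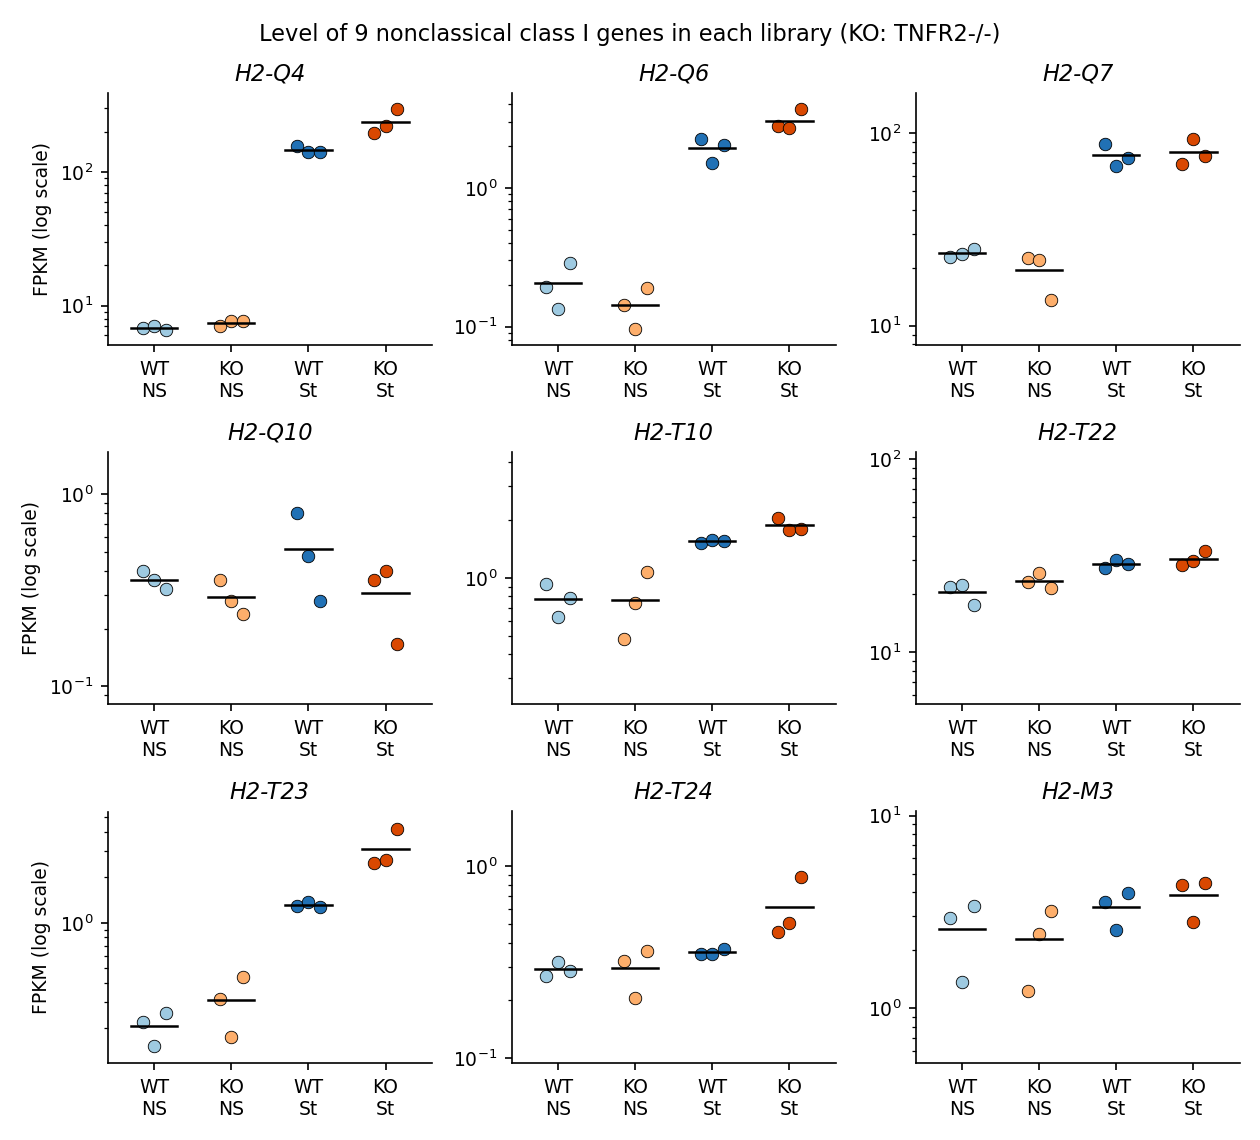
Level of each of the 9 tested members (FPKM, log scale, a separate axis for each gene) in each library of the 4 groups, with points for libraries and a line for the mean of 3. H2-Q4 lies at 6.57 to 7.64 FPKM in the 6 NS libraries and at 141 to 298 in the 6 St libraries, H2-T23 is highest in the 3 TNFR2-/- St libraries, and the groups of H2-Q10 and H2-M3 overlap.

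In TNFR2-/- OPCs, stimulation again raised *H2-Q4*, *H2-Q6*, *H2-Q7*, *H2-T23* and *H2-T10*, 5 of 10 members, and lowered none, where 5.41% of tested symbols were called higher, 4.68% lower and 10.1% in either direction. In mean FPKM *H2-Q4* rose 32-fold, *H2-Q6* 21.2-fold, *H2-T23* 10-fold, *H2-Q7* 4.10-fold and *H2-T10* 2.45-fold. The median log2 fold change of the 9 tested members was 0.93, against -0.11 for all tested symbols, a shift that became -0.02 with median-of-ratios scaling. All 3 St libraries lay above all 3 NS libraries in 7 of 9 members, which held for 12.7% of tested symbols.

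*H2-Q4* had 7.02, 7.64 and 7.63 FPKM in TNFR2-/- NS replicates 2, 4 and 5 and 196, 221 and 298 in the St replicates of the same numbers. Replicate 5 was the highest St library and stood above the others by more than they differed. The log2 fold change was 4.89 ± 0.13 SE (adjusted p = 2.23e-09), with 147 to 161 reads in NS and 4091 to 5947 in St libraries. *H2-T23* had 0.314, 0.176 and 0.440 FPKM in NS and 2.48, 2.61 and 4.21 in St, again with replicate 5 highest in both conditions. It rose by 2.13 ± 0.18 SE (adjusted p = 1.05e-05), and by 3.35 ± 0.32 SE on recovered reads with voom.

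*H2-Q6* had 0.144, 0.0956 and 0.191 FPKM in TNFR2-/- NS, from 4 to 8 reads, and 2.77, 2.68 and 3.68 in St, from 112 to 146 reads. Its log2 fold change was 2.45 ± 0.15 SE (adjusted p = 1.04e-06), or 4.33 ± 0.37 SE with voom. *H2-Q7* had 22.4, 22 and 13.7 FPKM in NS and 69.3, 93.2 and 76.0 in St, a rise of 2.03 ± 0.18 SE (adjusted p = 1.77e-05). Here culture 5 was the lowest NS library, and the St libraries did not follow the order seen for *H2-Q4*. *H2-T10* had 0.483, 0.738 and 1.07 FPKM in NS and 2.05, 1.77 and 1.79 in St, a rise of 0.93 ± 0.16 SE (adjusted p = 0.00169).

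*H2-T22* had 22.9, 25.8 and 21.6 FPKM in TNFR2-/- NS and 28.2, 29.6 and 33.3 in St, a log2 difference of 0.37 ± 0.11 SE (adjusted p = 0.0274) that was below 1.5-fold. *H2-T24* had 0.320, 0.207 and 0.362 FPKM in NS and 0.455, 0.504 and 0.874 in St, from 28 to 49 and 61 to 112 reads. Its groups did not overlap and its mean was 2.06-fold higher, but it lay below 1 FPKM and was not called. Its log2 difference was 0.47 ± 0.14 SE (adjusted p = 0.0304) after addition of 0.5 FPKM and 1.01 ± 0.27 SE with voom (adjusted p = 0.0163). *H2-Q10* differed by 0.02 ± 0.18 SE (95% interval -0.37 to 0.42) and *H2-M3* by 0.70 ± 0.33 SE (interval -0.04 to 1.43), with overlapping groups in both.

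**Figure D3:**
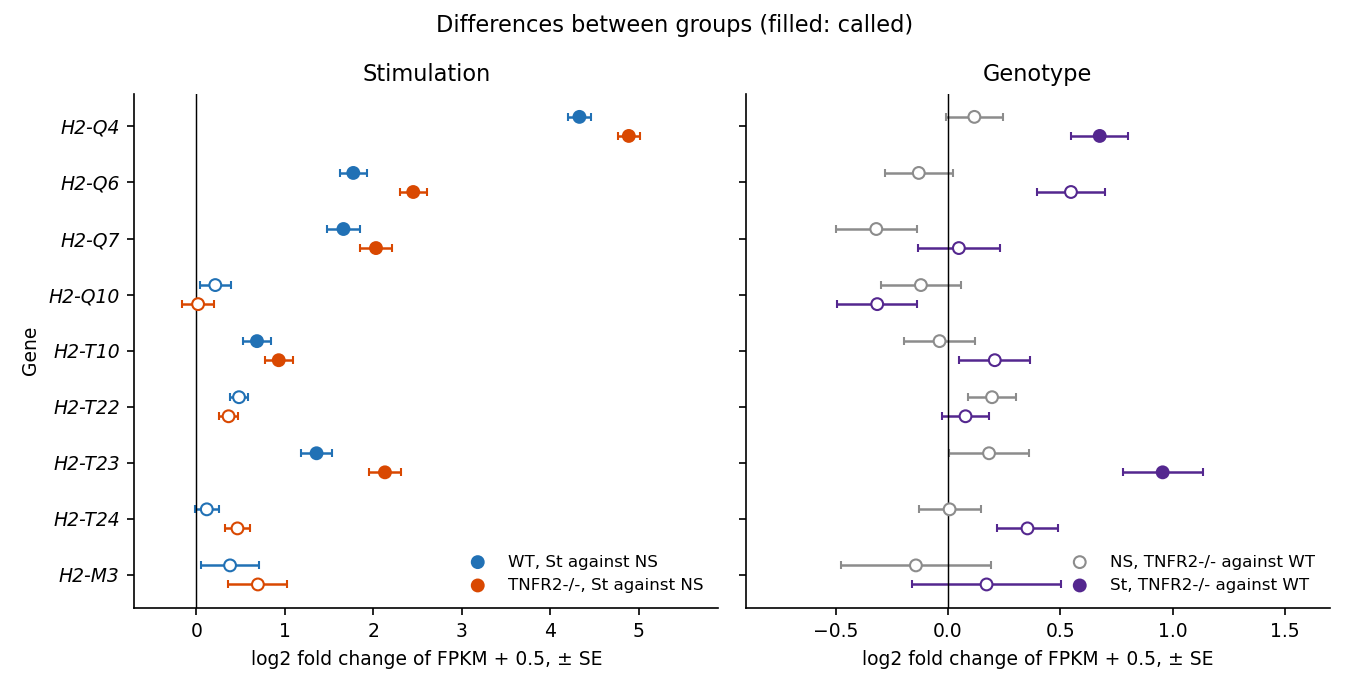
Log2 fold change of FPKM + 0.5 (x axis, with its standard error) of each tested member, for stimulation in WT and TNFR2-/- OPCs (left) and for genotype in NS and St OPCs (right), on scales of different width. Filled points are called genes: the same 5 members in both genotypes on the left, and H2-Q4 (0.68) and H2-T23 (0.96) in St OPCs on the right.

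The make-up of the nonclassical class I reads differed between conditions. *H2-T22* held 58.7% to 66.8% of the reads on the 10 members in WT NS libraries and 17.1% to 20.3% in WT St, while *H2-Q4* held 14.1% to 15.2% and 65.9% to 67.9%. In TNFR2-/- OPCs *H2-T22* went from 62.4% to 69.5% down to 11.9% to 14.6%, and *H2-Q4* from 14.0% to 15.2% up to 70.2% to 73.5%. The 10 genes together had 30.1 to 33.8 RPM without and 149 to 161 with stimulation in WT OPCs, and 34.8 to 37.4 and 194 to 282 in TNFR2-/- OPCs. *H2-T22* itself did not fall. These shares are of reads, not of molecules, and depend on transcript length.

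Per length, the order of the genes in WT NS OPCs was *H2-T22* (6.04 reads per kilobase of exon per 1000000 reads), *H2-Q4* (1.82), *H2-M3* (0.63), *H2-Q7* (0.618), *H2-T24* (0.593), *H2-T23* (0.351), *H2-T10* (0.204), *H2-Q6* (0.136) and *H2-Q10* (0.0688). The ranges of the 3 libraries overlapped between *H2-M3* and *H2-Q7*, between *H2-Q7* and *H2-T24*, and between *H2-T10* and *H2-Q6*, and between no other neighbors in this order. The classical genes *H2-K1* (14.6) and *H2-D1* (11.8) stood above all of them. In WT St OPCs *H2-Q4* led at 39.3, below *H2-D1* (59.1) and *H2-K1* (55.5), followed by *H2-T22* (8.47), *H2-T23* (2.22), *H2-Q7* (2.0), *H2-Q6* (1.28), *H2-M3* (0.825), *H2-T24* (0.732), *H2-T10* (0.405) and *H2-Q10* (0.0994). Overlaps there were between *H2-T23* and *H2-Q7* and between *H2-M3* and *H2-T24*.

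In TNFR2-/- NS OPCs *H2-T22* (6.93) and *H2-Q4* (1.99) again led. *H2-T24* (0.606), *H2-M3* (0.559), *H2-T23* (0.523) and *H2-Q7* (0.504) each overlapped the next in order, as did *H2-T10* (0.200), *H2-Q6* (0.0952) and *H2-Q10* (0.0558). In TNFR2-/- St OPCs the range of *H2-Q4* (63.8) overlapped that of *H2-K1* (69.6), which was the case in no other group. *H2-T23* (5.23) came after *H2-T22* (8.96) without overlap and above *H2-Q7* (2.07), *H2-Q6* (2.02), *H2-T24* (1.25) and *H2-M3* (0.948), of which each overlapped the next. *H2-T10* (0.490) and *H2-Q10* (0.0590) were lowest.

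**Figure D4:**
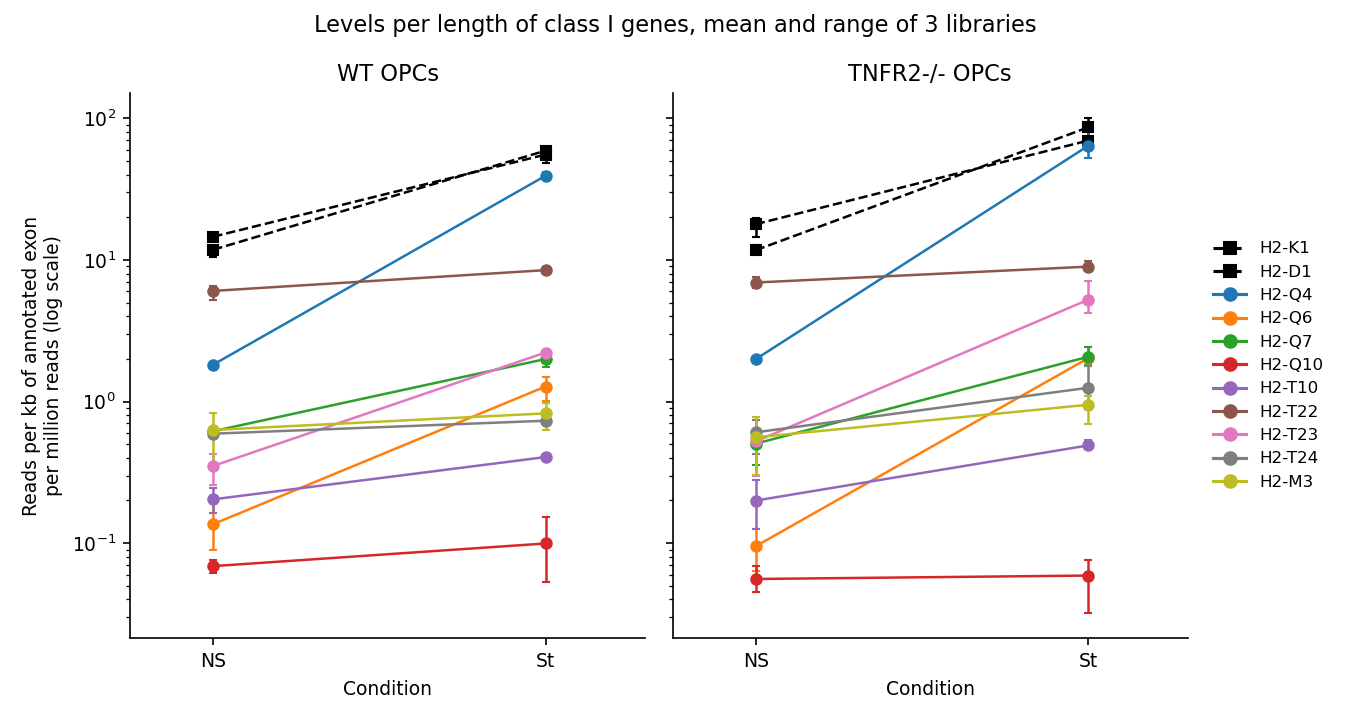
Reads per kilobase of annotated exon per 1000000 reads (log scale) of the 9 tested members (solid lines) and of the classical genes H2-K1 and H2-D1 (dashed black lines) in NS and St OPCs of both genotypes, with the mean and range of 3 libraries. The line of H2-Q4 crosses that of H2-T22 and ends near the classical genes, and H2-T22 is nearly level.

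Between non-stimulated genotypes no member was called (limma with Benjamini-Hochberg adjustment), where 2.90% of tested symbols were, and none of the 9 had an unadjusted p under 0.05 by limma. The median log2 difference was -0.04, against 0.04 for all tested symbols. *H2-Q4* was higher in all 3 TNFR2-/- NS libraries by 0.12 ± 0.13 SE (95% interval -0.16 to 0.40), and *H2-Q7* was lower in all 3 by 0.32 ± 0.18 SE (log2 difference -0.32, interval -0.72 to 0.08). The groups of the other 7 overlapped. All 3 libraries were higher in 19.9% of tested symbols and lower in 14.3%. *H2-T23* differed by 0.18 ± 0.18 SE (interval -0.21 to 0.58).

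Between stimulated genotypes 2 members were called, both higher in the libraries labelled TNFR2-/- St, where 1.18% of tested symbols were called higher and 1.80% in either direction. *H2-T23* was 2.36-fold higher, at 3.10 ± 0.965 FPKM against 1.32 ± 0.0573 (SD, n = 3), and *H2-Q4* 1.62-fold higher, at 238 ± 53.2 FPKM against 147 ± 8.82. Their log2 differences were 0.96 ± 0.18 SE (95% interval 0.56 to 1.35, adjusted p = 0.0218) and 0.68 ± 0.13 SE (interval 0.40 to 0.96, adjusted p = 0.0218). Neither group overlapped the other in either gene.

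*H2-Q6* was also higher in all 3 TNFR2-/- St libraries, by 0.55 ± 0.15 SE, and missed the threshold (adjusted p = 0.0593). *H2-T24* (0.35 ± 0.14 SE, adjusted p = 0.137) and *H2-T10* (0.21 ± 0.16 SE, adjusted p = 0.43) had no overlap between groups and did not pass. All 3 libraries were higher in 5 of 9 members, against 15.4% of tested symbols. *H2-Q7*, which shares sequence with *H2-Q6*, differed by 0.05 ± 0.18 SE (interval -0.35 to 0.45), and *H2-T22* by 0.08 ± 0.11 SE (interval -0.16 to 0.31). *H2-M3* (0.17 ± 0.33 SE) and *H2-Q10* (-0.31 ± 0.18 SE) overlapped. The median over the 9 was 0.21, and over all tested symbols -0.003.

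Both calls were close to the threshold. When WT St replicate 2, 3 or 4 was left out, the difference of *H2-T23* stayed at 0.95, 0.98 and 0.94 with adjusted p of 0.0523, 0.0812 and 0.0827. When WT St replicate 3 or 4 was left out, that of *H2-Q4* was 0.65 and 0.65 with adjusted p of 0.0934 and 0.0862. A fit of just the 6 St libraries left both differences as they were, with adjusted p of 0.0774 and 0.0886, and no member was called. Without TNFR2-/- St replicate 5 the difference of *H2-T23* was 0.75 (adjusted p = 0.0524). TNFR2-/- culture 5 had the highest St level of both genes. Without both of its libraries *H2-T23* stayed called, at 0.75 (adjusted p = 0.0304), whereas *H2-Q4*, at 0.50 (adjusted p = 0.0301), fell below 1.5-fold. Calls over all 18081 tested symbols fell in the same settings, from 325 to 47 in the fit of just the 6 St libraries. They numbered 193, 49 and 39 without WT St replicate 2, 3 or 4. Without TNFR2-/- St replicate 5 there were 73, and without both libraries of culture 5 there were 130.

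Markers of other cells differed between these groups too. All 6 astrocyte markers were higher in value in TNFR2-/- OPCs in both conditions, and their summed level was 1557 to 1669 RPM in WT St and 2382 to 3675 in TNFR2-/- St libraries, highest in culture 5. None of the 6 was at 0, and *Slc1a3*, a glutamate transporter, was called in St OPCs (log2 difference 0.69 ± 0.10 SE, adjusted p = 0.0116). Of the 7 mural and fibroblast markers the sum was 323 to 791 in WT St and 75.7 to 468 in TNFR2-/- St, and *Pdgfra* and *Lhfpl3*, 2 of 8 OPC markers, were called lower. The part of these differences in the levels of *H2-T23* and *H2-Q4* was not tested.

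Whether stimulation acted differently in the 2 genotypes was tested as an interaction, in which 0.00553% of all tested symbols and no member were called by limma. *H2-T23* had a difference between the responses of 0.77 ± 0.25 SE (unadjusted p = 0.0113, adjusted p = 0.533), *H2-Q6* of 0.68 ± 0.21 SE (unadjusted p = 0.00968, adjusted p = 0.524) and *H2-Q4* of 0.56 ± 0.18 SE (unadjusted p = 0.0104, adjusted p = 0.531). These 3 were the members with an unadjusted p under 0.05, and none was called by voom (adjusted p 0.813, 0.692 and 0.745). A limma fit with a block for each culture, which pairs NS with St libraries, gave the same differences. Its adjusted p were smaller, at 0.102 for *H2-T23*, 0.102 for *H2-Q6* and 0.115 for *H2-Q4*, and none was called. Their order depends on the scale, since with voom *H2-Q6* (1.14) was ahead of *H2-T23* (0.70) and *H2-T24* (0.70). Within cultures, *H2-T23* rose by 1.32, 1.53 and 1.24 on the log2 scale in WT cultures 2, 3 and 4 and by 1.87, 2.20 and 2.33 in TNFR2-/- cultures 2, 4 and 5. *H2-Q4* rose by 4.42, 4.25 and 4.32 in WT cultures and by 4.71, 4.76 and 5.20 in TNFR2-/- cultures. On this scale each TNFR2-/- culture rose by more than each WT culture for both genes and for *H2-Q6* (1.98, 1.67 and 1.67 against 2.34, 2.42 and 2.60). *H2-T24* separated too (0.15, 0.059 and 0.15 against 0.22, 0.50 and 0.67), whereas *H2-Q7* (1.93, 1.51 and 1.55 against 1.61, 2.06 and 2.43) did not. As plain ratios of FPKM, without the added 0.5, the cultures overlapped for *H2-T23* (5.89, 9.05 and 5.03 in WT against 7.91, 14.8 and 9.58), and those of *H2-Q4* (22.9, 20.3 and 21.5 against 27.9, 28.9 and 39.0) and *H2-Q6* (11.6, 11.3 and 6.97 against 19.2, 28.0 and 19.3) did not. The difference between genotypes in response thus lay within an interval of 0.22 to 1.33 for *H2-T23* and did not pass the test over all symbols.

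The genes on which class I molecules depend moved with the members. Of 16 classical class I and peptide loading genes, 13 rose with stimulation in WT and 13 in TNFR2-/- OPCs, and none fell. The transporter subunits *Tap1* (5.45 ± 0.18 SE in WT, 5.28 ± 0.18 SE in TNFR2-/-) and *Tap2* (3.68 and 3.71) and the immunoproteasome subunits *Psmb8* (3.65 and 3.45) and *Psmb9* (3.43 and 3.59) had the largest log2 fold changes. The chaperones *Calr*, *Canx* and *Pdia3* were the 3 that did not rise. *B2m*, the shared light chain, went from 177 ± 9.76 to 703 ± 19 FPKM in WT and from 188 ± 10.6 to 793 ± 63.4 in TNFR2-/- OPCs (SD, n = 3). *H2-D1* rose by 2.31 ± 0.11 SE and 2.85 ± 0.11 SE, and *H2-K1* by 1.91 ± 0.12 SE and 1.96 ± 0.12 SE. *H2-Q4* therefore rose further than either classical gene in both genotypes. The other members rose by less than *H2-D1* after addition of 0.5 FPKM, but in mean FPKM *H2-Q6* (9.36-fold in WT, 21.2-fold in TNFR2-/-) and *H2-T23* (6.32-fold and 10-fold) rose by more than *H2-D1* (5.01-fold and 7.36-fold).

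Between genotypes the same list had no call in NS OPCs and 1 in St OPCs, *Psmb9* (0.69 ± 0.17 SE, adjusted p = 0.0453), which was lost under 13 of 24 alternatives, among them omission of any 1 WT library. *H2-D1* was higher in TNFR2-/- St by 0.53 ± 0.11 SE (adjusted p = 0.0298), below 1.5-fold, and *H2-K1* by 0.33 ± 0.12 SE (adjusted p = 0.112). *H2-D1* was thus nearly as far apart between genotypes as *H2-Q4*, whose 95% interval of 0.40 to 0.96 holds its value.

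Of 20 regulators of class I transcription, 14 rose and 1 fell with stimulation in WT, and 14 rose and 1 fell in TNFR2-/- OPCs. *Nlrc5* went from 16 to 28 reads in WT NS to 9698 to 10344 in WT St libraries (log2 fold change 8.24 ± 0.19 SE), and from 34 to 68 to 8439 to 10019 in TNFR2-/- libraries (7.29 ± 0.19 SE). The transcription factors *Irf8* (8.15 and 7.83) and *Irf1* (7.28 and 6.69) and the inhibitor of cytokine signaling *Socs1* (5.69 and 6.26) followed. *Rfxank*, a subunit of the RFX complex that *Nlrc5* works with, fell by 0.77 and 0.97. *Rfx5* and *Rfxap*, its other subunits, were not called with stimulation (0.17 and -0.02 in WT, 0.37 and -0.48 in TNFR2-/- OPCs).

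In NS OPCs 2 of the 20 regulators were called higher in TNFR2-/- libraries, *Nlrc5* (0.85 ± 0.19 SE, adjusted p = 0.0242) and *Irf1* (0.66 ± 0.13 SE, adjusted p = 0.0188), at a time when no member was. Neither was called when WT NS replicate 3 or 4, or TNFR2-/- NS replicate 5, was left out. In St OPCs *Nlrc5* differed by -0.10 ± 0.19 SE and *Irf1* by 0.07 ± 0.13 SE, and *Rfxap* was called lower (-0.65 ± 0.15 SE, adjusted p = 0.0416), a call lost under 14 of 24 alternatives, among them omission of any 1 WT library. No regulator was called higher in St OPCs, the comparison in which *H2-T23* and *H2-Q4* were.

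Other class I genes of the H2 region were mostly silent. Of 16 looked at, 2 were tested and *H2-Q5* was called, with 0 to 85 reads over all libraries, rising by 2.74 ± 0.30 SE in WT (adjusted p = 1.11e-04) and by 3.47 ± 0.30 SE in TNFR2-/- OPCs (adjusted p = 1.42e-05). *H2-Q5* shares sequence with *H2-Q7*. *H2-M5* did not pass (0.04 ± 0.28 SE in WT), and the other 14 had 6 reads or fewer in each library. Among 12 class I-like genes elsewhere in the genome, 10 were tested and none rose with stimulation. *H60b*, a ligand of the activating receptor NKG2D, fell by 1.26 in WT (log2 fold change -1.26 ± 0.24 SE, adjusted p = 0.00482) and by 1.51 in TNFR2-/- OPCs (-1.51 ± 0.24 SE, adjusted p = 0.00119). *Fcgrt*, the neonatal Fc receptor chain, was higher in TNFR2-/- OPCs in both conditions (0.95 ± 0.18 SE, adjusted p = 0.0176, and 0.71 ± 0.18 SE, adjusted p = 0.0471). Of 9 receptors that read nonclassical molecules, 7 had 4 reads or fewer in each library, among them *Klrd1* (CD94) at 0 and *Klrc1* (NKG2A) at 0 or 1.

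Some markers of cell type moved with stimulation as well. Of 5 neuronal markers 1 rose, *Tubb3* (3.06 ± 0.18 SE in WT, 3.18 ± 0.18 SE in TNFR2-/-), and 1 fell, *Snap25* (-0.97 ± 0.23 SE and -0.94 ± 0.23 SE). None of the 5 was at 0, and the other 3, *Rbfox3*, *Syt1* and *Stmn2*, had no call. The summed level of the 5, most of which was *Tubb3* in St libraries, went from 106 to 118 RPM in WT NS to 429 to 458 in WT St, and from 96.3 to 124 to 462 to 544 in TNFR2-/- libraries. Of the OPC markers, the transcription factor *Olig2* fell in both genotypes (-1.23 ± 0.10 SE and -1.16 ± 0.10 SE), and in WT OPCs *Cspg4* fell (-0.66 ± 0.12 SE) and *Sox10* rose (0.61 ± 0.17 SE). Of the mural and fibroblast markers *Lum*, with 0 to 24 reads, rose in both genotypes, and in TNFR2-/- OPCs *Pdgfrb* fell and the endothelial marker *Cldn5*, with 6 to 40 reads, rose. The 6 astrocyte markers and the 7 markers of mature oligodendrocytes had no call with stimulation, nor had the 2 of 12 microglial and 1 of 7 T and NK cell markers that were tested. The part of these markers in the responses of the members was not tested.

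Across the 12 libraries, the 5 symbols whose log2 levels followed those of *H2-T23* most closely, out of 13553 that reached a mean of 1 FPKM, were *C1ra* (Pearson r = 0.992), *Timp3* (0.991), *Phf11d* (0.991), *Rnf125* (0.989) and *Ptpn2* (0.987). *C1ra* is a protease of the complement system, *Timp3* an inhibitor of metalloproteinases, *Rnf125* a ubiquitin ligase and *Ptpn2* a phosphatase. Among the members *H2-Q6* (0.966) and *H2-Q4* (0.952) were most like it, and *H2-M3* (0.618) least like it of the 6 others compared. The libraries share their groups, so these values describe the pattern over 4 groups and are given with no test.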

How the data were processed

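Upstream, the authors used Trim Galore for trimming, STAR for alignment to GRCm38 and edgeR. They deposited FPKM values per symbol in 2 tables, one of NS and one of St libraries. From the deposited FPKM, whole reads were recovered in every library for 26635 of 26636 symbols above 0 in at least 2 libraries (tolerance 0.02 reads), with the same divisor for a gene in both tables. The smallest divisor that fitted was taken. For a symbol above 0 in few libraries some divisor nearly always fits, so this share says little about its reads. These divisors are not annotated lengths. In all, 229 entries of 99 repeated symbols were left out. The authors' own comparisons were not used.

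Groups followed the labels. Means of the 4 groups were fitted to log2(FPKM + 0.5) with limma 3.58.1 (R 4.3.3, prior with trend) over all 12 libraries, with Benjamini-Hochberg adjustment over 18081 symbols. Nothing in the labels says that replicates came from separate litters, so p-values measure only the spread between these cultures. An exact permutation test of 3 against 3 libraries cannot go below p = 0.1. Library totals are 26886879 to 30335266 reads, and limits given for a count of 0 cover counting error only. In data simulated for TNFR2-/- St against WT St with 18080 genes, 84 of the 100 with a 2-fold change and 96 of the 100 with a 4-fold change were called. Every gene was simulated with a dispersion of 0.02, and the changed genes had a mean of at least 1 FPKM. These counts do not describe genes with a wider spread or a lower level. Pairing by culture number was checked on deviations from the group means (13554 genes). NS and St libraries of one number correlated at 0.34 to 0.65 within a genotype (6 pairs), and libraries of one number in different genotypes at -0.06 to 0.20 (4 pairs), so numbers pair NS with St cultures only.

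The members, the gene lists and the tests were chosen with earlier results of these data known. All members are named. From each other list, counts are given with up to 4 called genes of largest change and up to 2 not called. Genes named beyond this rule were chosen after their values were seen. Alternatives were other pseudocounts (0.1 and 1), filters, scaling, voom on recovered reads, summed paralogs, only the libraries compared, a replicate block, and each library left out. A call with no minimum level, a minimum of 2 RPM, and omission of TNFR2-/- culture 5 were added after the data were seen. Shared 100-base sequences were counted in GENCODE M21 transcripts, and promoters were read from RefSeq, with Python 3.11.15.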

Additional observations from a re-analysis of the deposited data

How the results depend on the processing

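With near-identical paralogs summed, 3 entries were called in WT and 3 in TNFR2-/- OPCs with stimulation, in place of 5 each, since *H2-Q6* and *H2-Q7* became 1 entry and the sum of *H2-T10* and *H2-T22* was below 1.5-fold. The latter sum was mostly reads of *H2-T22*, so it cannot show whether *H2-T10* rose. A minimum of 2 RPM in place of 1 FPKM also left 3 and 3, by construction of the minimum. Without each library in turn, 4 to 5 members were called with stimulation in WT and 5 in TNFR2-/- OPCs, and 0 to 2 between stimulated genotypes. For stimulated genotypes, 0 were called with only the 6 libraries compared, 1 with the replicate block and 1 without both libraries of TNFR2-/- culture 5. Over all tested symbols 47, 433 and 130 were called in these settings, against 325 in the main fit. For genotypes the replicate block rests on numbers that, by the check of pairing, do not pair cultures across genotypes. It changed no other count of called members (5 and 5 with stimulation, 0 between NS genotypes, 0 for the interaction). The loss of calls without single libraries has a cause that was not tested.

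Of 971 alternative values for single members, 933 kept their direction and their side of the adjusted p of 0.05, 20 no longer passed, 1 newly passed (*H2-Q6* between stimulated genotypes with a pseudocount of 1, 0.47, adjusted p = 0.0464, limma) and 17 changed sign, none of them a called value. These counts leave the 1.5-fold minimum aside, which *H2-Q4* between stimulated genotypes missed at 0.50 without culture 5 and at 0.58 with the replicate block, and *H2-T10* in WT OPCs at 0.52 with a pseudocount of 1. With each library left out in turn, the difference between NS genotypes ranged from -0.21 to 0.13 for *H2-T10*, from -0.052 to 0.091 for *H2-T24* and from -0.47 to 0.17 for *H2-M3*. Between stimulated genotypes that of *H2-Q7* ranged from -0.071 to 0.15, and with stimulation of TNFR2-/- OPCs that of *H2-Q10* from -0.060 to 0.15. *H2-T24* between NS genotypes was -0.0085 with median-of-ratios scaling, -0.00027 with voom, -0.095 with the replicate block and -0.052 without both libraries of culture 5, and *H2-M3* between stimulated genotypes was -0.24 with the replicate block. The cause of these changes was not tested. Depth limits *H2-Q1*, *H2-Q10*, *H2-M3*, *H2-T10*, *H2-T24* and *H2-Q6*, which had at most 1 (the smallest number that fits), 20, 46, 55, 112 and 146 reads in a library.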
